A study of Mus musculus with 13 samples.

Results

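Intercalated cells are the acid-base cells of the connecting tubule and collecting duct of the kidney. The nuclei described here were those that the deposited annotation assigns to the intercalated cluster, 599 of 28316 nuclei profiled by single nucleus ATAC-seq (snATAC-seq), of which 27652 lie in 13 main clusters. They came from all 5 snATAC-seq samples, with 40 and 56 nuclei in the P0 samples, 94 in the P21 sample, and 221 and 188 in the P56 samples. The principal cells, their neighbours in the collecting duct, numbered 1325.

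Intercalated cells carry a vacuolar proton pump (V-ATPase), built from a cytosolic V1 and a membrane V0 sector, some subunits of which have isoforms typical of proton-secreting epithelia. Type A cells place the pump in the apical membrane and return bicarbonate to the blood through the exchanger encoded by Slc4a1, whereas type B cells secrete bicarbonate into the urine through pendrin, encoded by Slc26a4. The forkhead transcription factor Foxi1 is needed for both types, and Notch signalling between neighbouring cells steers the choice between principal and intercalated fate.

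Whole kidneys of mice were taken on the day of birth (P0, 2 samples), at 3 weeks (P21, 1 sample) and at 8 weeks (P56, 2 samples). The paper describes the mice of its scRNA-seq as wild-type C57BL/6, and its snATAC-seq methods give no strain. No treatment or engineered allele is described for any group. P21 and P56 formed the adult group. The sources used here do not give the animals behind each sample, so the spread between samples may be technical in part. Clusters were made by the authors from the open chromatin of the same nuclei, so a difference of intercalated nuclei from other clusters is a description here and carries no test. Comparisons of P0 with adult and of this change between cell types were tested. The nuclei summed in them were still picked by these cluster labels. How the division of P0 nuclei between clusters affects these comparisons was not tested. Per-sample values are given in the order P0 replicate 1, P0 replicate 2, P21, P56 replicate 1, P56 replicate 2.

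The deposited matrix records for each nucleus whether each of 300755 peaks (mm10) holds a fragment. A peak was open in a nucleus if it does, and an open call is such a pair. Open calls over the peaks of a gene body and its 2 kb upstream, per 1000000 open calls of the same nuclei (CPM), are called gene activity. The intercalated nuclei held 292968, 463438, 504195, 827289 and 1205965 open calls in the 5 samples. The median nucleus had 6594.5, 8634.5, 4518.5, 3418 and 5737.5 open peaks, so P0 nuclei had more open peaks (mean of medians 7614.5 at P0 and 4558 in adult), and principal nuclei likewise (6554.5, 7369, 4606, 2839.5 and 6027.5). The difference of -3056.5 open peaks gave p = 0.2 by a two-sided exact permutation test, the smallest p that 2 against 3 samples allow. Of the barcodes, 477 occur in more than 1 sample, and 21 intercalated nuclei carry one of them, 2 of these with the same barcode also in the intercalated cluster of another sample.

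Markers of intercalated cells were checked in the annotated nuclei, as a description, since the clusters were named by the authors from the accessibility of such genes in the same data. The activity of 5 intercalated markers (Atp6v1g3, Foxi1, Atp6v0d2, Slc4a1 and Slc26a4) summed to 236, 259, 395, 346 and 403 CPM, and each of the 5 had its highest mean in the intercalated cluster. Atp6v1g3, which encodes a V-ATPase subunit of restricted expression, had 54.6, 58.3, 115, 88.2 and 99.5 CPM, against 4.37 ± 4.25 (SD, n = 5) in immune cells, the next cluster. Foxi1 had 30.7, 28.1, 53.6, 32.6 and 67.2, against 7.73 ± 1.56 in principal cells. Every intercalated value of both genes lay above the mean of every other cluster.

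Markers of principal cells were not absent from intercalated nuclei. Their 7 genes summed to 290, 274, 301, 268 and 302 CPM, 58.5% of the sum in principal cells (490.8). The members differed. Aqp2, the vasopressin-regulated water channel, had 12.02 ± 3.65 in intercalated and 72.0 ± 42.4 in principal nuclei, whereas Aqp3, a basolateral water channel, had 57.0 ± 15.2 and 48.3 ± 21.3. Scnn1b made up the largest part of the intercalated sum, with means of 110.8 and 105.35, and was higher in connecting tubule (140.9). Elf5 (51.6 and 143.3), Scnn1g (37.3 and 63.85), Fxyd4 (10.3 and 37.4) and Avpr2 (8.13 and 20.5) had lower means in intercalated nuclei. The markers of proximal tubule reached 18.5% and those of loop of Henle 12.7% of the level in their own cluster. No marker of any list was at 0 in all 5 intercalated sums, and the macrophage gene C1qb was lowest at 0.332 ± 0.742. Their part in the results below was not tested.

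The sequences that follow are windows of at most 300 bases, mm10 forward strand, centred on 6 peaks with the highest signal in intercalated nuclei relative to the other clusters. They were chosen because they lie by genes central to these cells (Tfcp2l1, Foxi1, Atp6v1g3), because they are among the peaks with the largest difference (by Bmp3 and at the start of the long noncoding RNA Gm12121), or because they hold a forkhead match within a gene of intercalated cells (Hepacam2). Capitals mark matches on either strand to short motifs whose letters are given with their counts: the forkhead motif in the first 3 windows, with a CP2 match besides in the first, the motif of GATA factors in the Gm12121 window, the motif of oestrogen-related receptors (ERR) in the Foxi1 window, and the AP-1 motif in the Atp6v1g3 window.
Tfcp2l1 downstream element, chr1:118736721-118737020: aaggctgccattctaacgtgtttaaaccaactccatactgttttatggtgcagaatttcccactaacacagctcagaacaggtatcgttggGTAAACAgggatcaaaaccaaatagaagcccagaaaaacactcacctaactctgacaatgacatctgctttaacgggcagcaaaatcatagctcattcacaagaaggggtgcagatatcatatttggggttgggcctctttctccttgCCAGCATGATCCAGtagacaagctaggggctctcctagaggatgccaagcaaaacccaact
Bmp3 upstream element, chr5:98803783-98804082: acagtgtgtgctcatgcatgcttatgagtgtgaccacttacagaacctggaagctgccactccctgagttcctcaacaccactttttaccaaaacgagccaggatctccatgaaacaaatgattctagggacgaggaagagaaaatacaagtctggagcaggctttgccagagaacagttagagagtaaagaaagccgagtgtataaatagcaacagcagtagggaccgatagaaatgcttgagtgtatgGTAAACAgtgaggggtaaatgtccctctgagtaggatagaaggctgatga
Hepacam2 intron element, chr6:3472964-3473263: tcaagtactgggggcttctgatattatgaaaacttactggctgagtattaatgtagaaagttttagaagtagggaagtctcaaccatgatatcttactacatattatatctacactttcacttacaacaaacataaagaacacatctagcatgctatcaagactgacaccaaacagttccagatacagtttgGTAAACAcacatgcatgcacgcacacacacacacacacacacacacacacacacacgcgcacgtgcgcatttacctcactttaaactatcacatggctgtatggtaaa
Gm12121 start, chr11:34141908-34142207: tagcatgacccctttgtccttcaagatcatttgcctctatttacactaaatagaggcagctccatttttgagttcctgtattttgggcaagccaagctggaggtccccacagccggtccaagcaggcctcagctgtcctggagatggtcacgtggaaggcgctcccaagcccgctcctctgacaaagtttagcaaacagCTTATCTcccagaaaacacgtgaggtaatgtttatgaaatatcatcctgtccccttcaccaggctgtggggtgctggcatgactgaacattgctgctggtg
Foxi1 downstream element, chr11:34155353-34155652: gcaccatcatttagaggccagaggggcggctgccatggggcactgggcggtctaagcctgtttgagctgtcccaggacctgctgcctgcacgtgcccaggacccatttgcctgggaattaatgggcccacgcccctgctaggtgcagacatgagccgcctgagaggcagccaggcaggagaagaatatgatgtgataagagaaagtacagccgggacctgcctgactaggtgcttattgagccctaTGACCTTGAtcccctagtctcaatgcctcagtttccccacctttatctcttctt
Atp6v1g3 upstream element, chr1:138266207-138266506: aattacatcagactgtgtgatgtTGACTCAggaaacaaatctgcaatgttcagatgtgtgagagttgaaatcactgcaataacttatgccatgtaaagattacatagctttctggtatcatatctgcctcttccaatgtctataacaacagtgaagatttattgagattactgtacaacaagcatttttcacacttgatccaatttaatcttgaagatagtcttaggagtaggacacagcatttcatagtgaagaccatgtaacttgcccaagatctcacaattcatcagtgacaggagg

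Intercalated nuclei formed a small share of each kidney, and it was larger in adult samples. Of the nuclei in the main clusters they made up 0.676, 1.05, 2.89, 3.19 and 3.03%. Each adult sample lay above both P0 samples (0.861% ± 0.261, SD, n = 2, and 3.04% ± 0.149, n = 3). The difference of 2.18 percentage points had p = 0.2 by the two-sided exact permutation test, again the smallest p possible.

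Within the collecting duct the contrast was wider. Of intercalated and principal nuclei together, 9.22, 13.8, 47.7, 45.4 and 47.0% were intercalated. The P0 mean was 11.5% ± 3.24 and the adult mean 46.7% ± 1.197, with the same p of 0.2 by exact permutation. Adding the connecting and distal convoluted tubule to the denominator gave 6.45, 9.93, 24.7, 20.3 and 17.1%. In the 1 scRNA-seq library per stage of the same study, intercalated cells were 368 of 3177 intercalated and principal cells at P0 (11.6%, 95% exact Clopper-Pearson interval 10.5 to 12.7) and 585 of 1024 in adult kidney (57.1%, 54.0 to 60.2). The scRNA-seq values had no replicates and their intervals cover counting error only.

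**Figure D1:**
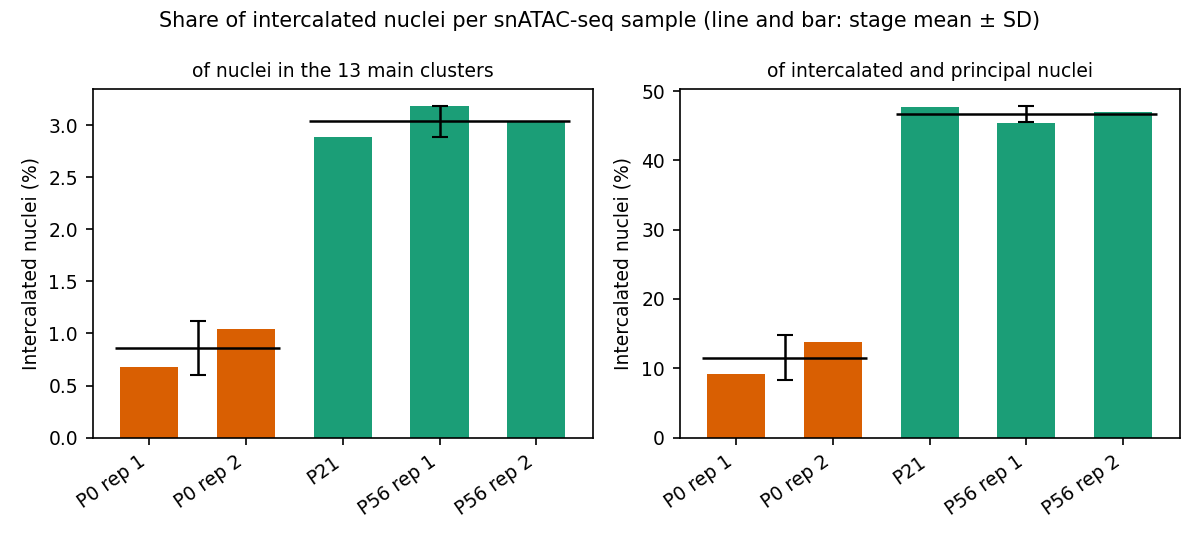
Percentage of intercalated nuclei in each snATAC-seq sample (bars), of nuclei in the 13 main clusters (left) and of intercalated and principal nuclei (right), with the mean ± SD of each stage as a line with an error bar. The 3 adult samples sit between 45.4 and 47.7% on the right, above both P0 samples at 9.22 and 13.8%.

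Peaks and genes were then ranked by whether intercalated nuclei exceeded each of the 12 other clusters, with open calls summed per sample and cluster. Of 77118 peaks, 666 ranked highest in intercalated nuclei past a Benjamini-Hochberg (BH) threshold of 0.05 on the largest of the 12 pairwise p (0.864% of all), and of 16664 genes by activity, 59 did (0.354%). Since the clusters were drawn from these values, the counts rank features and test nothing. A typical one of these 666 peaks was open in 13.7% of intercalated nuclei and in 1.46% of the next cluster (medians), 220 were open in under 1% of every other cluster on average, and 653 were highest in intercalated nuclei in each of the 5 samples. On the log2 scale they exceeded the mean of the other clusters by 1.93 to 7.84, with a median of 4.97. The last peak inside the threshold differed by 4.346 and the first outside by 4.52. Among the other clusters, principal cells came nearest at 139 of these peaks, the connecting tubule at 102 and the loop of Henle at 66. Without P0 replicate 2 the ranking gave 392 peaks and 36 genes.

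The region between Foxi1 and the neighbouring gene 4930469K13Rik on chromosome 11 held the peak with the largest difference of all. It lies at chr11:34136714-34137345, 71.1 kb downstream of the Foxi1 start, overlaps no annotated gene and was open in 25, 16.1, 28.7, 22.6 and 39.9% of intercalated nuclei. The next cluster, the proximal straight tubule (PST), reached 0.282%. A peak at chr11:34141666-34142449, over the start of the long noncoding RNA Gm12121, was open in 57.5, 58.9, 47.9, 31.7 and 52.7%, against 0.530% in stroma 1. By the mean of the 5 samples it was the most widely open of the 9 peaks within 150 kb of Foxi1 that ranked highest in intercalated nuclei, but in the 3 adult samples the peak 58.0 kb downstream, described next, was open in more nuclei (60.6, 36.7 and 53.7%).

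The start of Foxi1 itself, chr11:34207790-34208449, was open in fewer nuclei on average than 4 of the other 8 peaks, in 22.5, 23.2, 28.7, 12.2 and 43.1%, against 4.63% in principal cells. The elements 52.6 and 58.0 kb downstream were also open elsewhere. The former (chr11:34155220-34155785) had 38.3% ± 11.8 in intercalated and 11.6% in connecting tubule nuclei, and the latter (chr11:34149406-34150838) 46.8% ± 10.1 in intercalated nuclei and 7.69% in podocytes. The other 4 were open in 7.51 to 16.7% of intercalated nuclei on average and in at most 0.782% of the next cluster. Of the 9 peaks, 0 held the forkhead motif, 1 the ERR motif and 1 the GATA motif.

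Of the 20 peaks with the largest difference, 3 lay in or by genes of the proton pump. Atp6v1c2, which encodes the C2 subunit of the V1 sector, carried a peak over an exon (chr12:17321510-17321951) open in 37.5, 33.9, 24.5, 17.2 and 30.9% of nuclei, against 0.396% in stroma 1. The Atp6v1g3 upstream element, 7.38 kb before the start (chr1:138266160-138266553), had 10.0, 26.8, 24.5, 13.6 and 25%, against 0.443% in nephron progenitors. Every sample of intercalated nuclei was above these means of the next cluster.

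Others among the 20 peaks with the largest difference lay further from their nearest gene or in introns. A peak 11.7 kb upstream of Adgrf5 (chr17:43348463-43348985), which encodes an adhesion G protein-coupled receptor listed for type A cells, was open in 17.5, 25, 8.51, 15.4 and 20.2%, against 0.557% in connecting tubule. By activity over its whole body, Adgrf5 was highest in endothelial cells. A peak 9.03 kb upstream of Bsnd (chr4:106501089-106501531), the gene of the chloride channel subunit barttin, overlapped an exon of the noncoding gene Tmem61 and was open in 35, 23.2, 22.3, 18.1 and 30.3%, against 0.702% in distal convoluted tubule. The Bmp3 upstream element was open in 27.5, 35.7, 9.57, 12.2 and 6.91%, with both P0 samples above the 3 adult samples, and in 0.137% of proximal convoluted tubule nuclei. Relative to all open calls, which are more per nucleus at P0, it had 37.5, 43.2, 17.9, 32.6 and 10.8 CPM, and its change between stages was not called (log2 -1.18, adjusted p = 0.24, edgeR). Of all peaks tested between stages, 33.2% did not overlap between P0 and adult samples. Further peaks of this group lay in introns of Hepacam2, Tmem117, Rcan2, Il1rl2 and Stap1.

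Counted by the gene that they overlap or whose start is nearest, Tfcp2l1 had 9 of the 666 peaks, the most of any gene, followed by 4930469K13Rik with 6, Dmrt2 with 5 and Avpr1a and Slc4a9 with 4 each. Tfcp2l1 encodes a CP2 family transcription factor of the collecting duct, Dmrt2 a transcription factor of type A cells, Avpr1a the V1a vasopressin receptor and Slc4a9 the anion exchanger AE4 of type B cells. Of 74 genes listed for their roles in intercalated cells, 30 had at least 1 such peak, 63 peaks in all. By the same assignment, 603 of 16393 genes with a tested peak had one (3.68%). The listed genes also had more tested peaks, with a median of 8 against 3 for all genes. The lists include markers by which the authors named the cluster and were chosen with earlier results of these data known. This contrast is therefore a description.

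Among genes ranked by activity, the largest differences from the mean of the other clusters were those of Gm6356 (log2 6.68), Atp6v1g3 (6.20), Foxi1 (5.87), Gm34302 (5.73) and Il22ra2 (4.74), the last encoding a soluble decoy receptor for interleukin 22. Smbd1, Fetub, Aqp6, Slc4a1 and Slc4a9 followed, with 3.95, 3.93, 3.91, 3.90 and 3.78. Slc4a9 was strong in level too, with 181, 158, 210, 226 and 219 CPM in intercalated nuclei and 32.6 ± 9.47 in distal convoluted tubule, the next cluster. The next 10 genes by this difference were Pramef12, Hmx2, 9130008F23Rik, Ocstamp, Serpinb6b, Fam71b, Atp6v1c2, Wscd2, Ociad2 and Avpr1a, at 2.82 to 3.68. Gm6356, Gm34302 and Foxi1 each rested on 1 peak.

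The listed genes were compared by role, and all of them had a peak. Of the 5 proton-secreting isoforms of the V-ATPase, 5 had their highest mean activity in intercalated nuclei, and 5 were highest in each of the 5 samples, against 5.72% and 0.884% of all 18219 genes with a peak. Atp6v1g3 and Atp6v0d2, among these 5, were markers by which the authors named the cluster, so the contrast is a description. Atp6v0a4, the a4 subunit, had the highest level of them, with 317, 339, 434, 412 and 448 CPM, against 341.0 ± 75.6 in distal convoluted tubule. Its start was open in a larger share of nuclei of the proximal convoluted tubule (PCT, 34.8%) than of intercalated nuclei (29.4%). Atp6v1b1 had 128.7 ± 13.5 and Atp6v0d2 93.5 ± 15.6 in intercalated nuclei, against 104.3 ± 6.95 in distal convoluted tubule and 58.7 ± 28.9 in immune cells. Of the 5 isoforms, 2 (Atp6v1g3 and Atp6v1c2) passed the threshold of the ranking against each other cluster. The 18 subunits of wide use were mixed, with 6 highest by mean in intercalated nuclei and 2 in each sample.

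Of 6 type A genes, 4 had their highest mean in intercalated nuclei. Slc4a1 had 27.3, 43.2, 47.6, 43.5 and 71.3 CPM, against 9.44 ± 4.93 in PST, and Aqp6, a vesicular anion and water channel, had 10.2, 12.9, 35.7, 25.4 and 46.4, against 4.32 ± 2.52 in nephron progenitors. Adgrf5 was lower in intercalated (116.0 ± 9.47) than in endothelial nuclei (389.1 ± 36.7), and Slc26a7 had 42.7 ± 17.0, against 53.5 ± 7.12 in podocytes, where its mean was highest. All 5 type B genes were highest in intercalated nuclei by mean. Hmx2, a homeobox gene, had 23.9, 30.2, 51.6, 56.8 and 44.8 CPM, against 6.18 ± 2.54 in podocytes, and Oxgr1, the receptor for 2-oxoglutarate, had 71.7, 77.7, 89.3, 117 and 68.8, against 38.5 ± 6.59 in the next cluster. For both genes every intercalated value was above the mean of the next cluster.

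Transport genes and regulators were shared with other segments. Of 13 acid-base and ion transport genes 6 were highest by mean in intercalated nuclei but 1 in each sample. Car12, a membrane carbonic anhydrase, had 217.2 ± 55.3, against 163.8 ± 38.2 in the next cluster, and was the transport gene highest in intercalated nuclei in each of the 5 samples. Of 14 regulators 5 were highest by mean, and Foxi1 was the one ranked above each cluster. Tfcp2l1 had 309.6 ± 74.8 against 261.2 ± 77.3 in the next cluster and was highest in intercalated nuclei in 4 of 5 samples. By gene activity it did not rank above each cluster, although 9 of its nearby peaks did.

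Of 8 Notch pathway genes, 0 had their highest mean activity in intercalated nuclei, and 2, the ligand genes Dll4 and Dll1, were above principal nuclei in each of the 5 samples, against 11.7% of all genes with a peak. Dll4 had 54.6, 60.4, 89.3, 65.3 and 87.9 CPM in intercalated nuclei, against 20.1 ± 3.77 in principal and 95.8 ± 26.6 in endothelial nuclei. Its start was open in the largest share of nuclei in intercalated cells, 35.4% ± 9.71, against 20.1% in endothelial cells. Dll1 had 46.7 ± 6.10 in intercalated and 35.8 ± 5.51 in principal nuclei. Notch2 had 95.6, 166.2, 99.2, 90.7 and 112.8 CPM in intercalated nuclei and 302.5 ± 27.3 in principal cells, where it was highest. Each intercalated value lay well below that of principal cells. The ligand gene Jag1 had 121.1 ± 13.9 in intercalated and 131.2 in principal nuclei, and the target gene Hes1 had 116.6 ± 36.9 and 113.6, differences within the spread between samples.

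**Figure D2:**
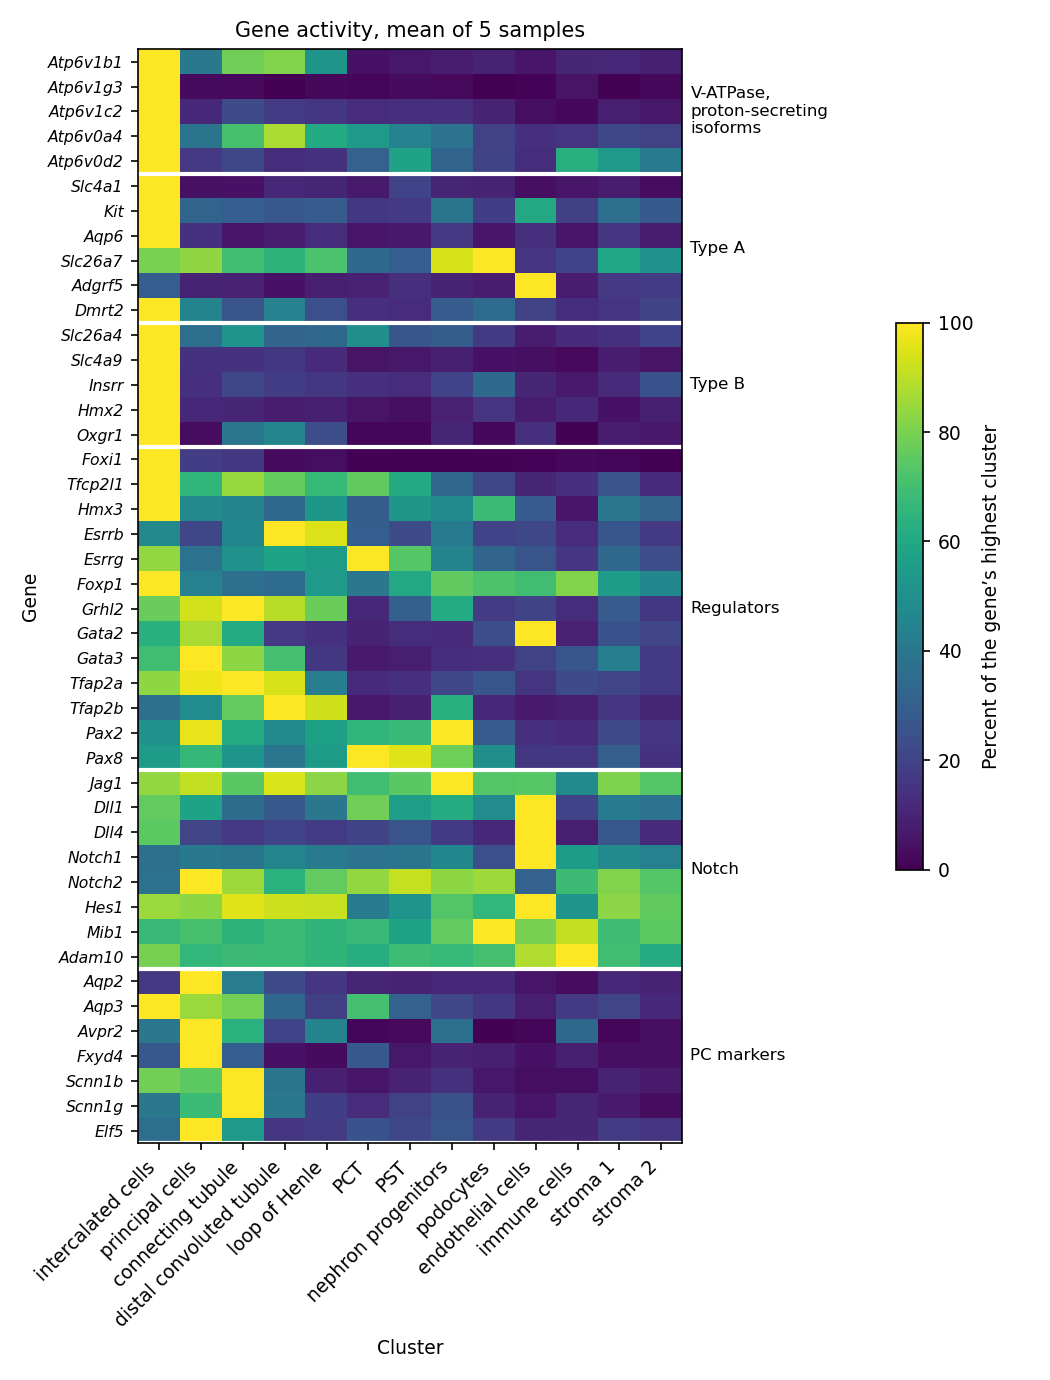
Gene activity by cluster (columns) for genes of the proton pump, type A and B cells, regulators, Notch pathway and principal cell markers (rows), as a percentage of the gene's highest cluster, from the mean of 5 samples. The 5 proton-secreting isoforms are at 100% in intercalated cells, whereas Notch2 peaks in principal cells.

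The 666 peaks lay away from gene starts. Of them 5.11% lay over an annotated transcript start, against 22.6% of the 77091 tested peaks that lie on assembled chromosomes. Introns held 47.3%, and regions outside genes and not within 5 kb upstream of a transcript start 30.0%, against 39.0 and 23.0% of all tested peaks. The 10490 peaks that ranked highest in another cluster had 8.91, 45.6 and 29.1% in the same classes.

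The letters of the peaks, which the ranking did not use, differed most in the forkhead motif when measured in percentage points. In the central 300 bp, TGTTTAC or its reverse complement occurred in 136 of the 666 peaks (20.4%), in 5.05% of the peaks led by another cluster and in 4.69% of all tested peaks. No other cluster with at least 20 such peaks had a share above that of podocytes, 8.55% of 983 peaks. The share was 20.7% in intercalated peaks away from gene starts, and 5.34% among all tested peaks away from starts. The 666 peaks held less G and C than all tested peaks (median 46.7 and 50.7%), and all tested peaks weighted to the same G and C classes had 5.72%. The peaks were also narrower, with a median width of 528.5 against 740 bp. A match is a description of the sequence and does not show that a factor bound there.

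Other motifs differed less in percentage points, a measure that depends on how common each motif is. The ERR motif, spelled TCAAGGTCA, was found in 3.30% of the 666 peaks, against 0.842% of all tested peaks, and the grainyhead motif (AACCNGTT) in 4.354%, against 2.62%. For CP2 (CCAG, 6 bases of any kind and CCAG again) the shares were 5.86 and 5.08%, for the motif of GATA factors, with the letters AGATAAG, 4.50 and 3.24% and for the AP-1 motif, with the letters TGANTCA, 10.96 and 9.71%, and the order of these 3 turned round when whole peaks were searched in place of their centres. The AP-2 motif (GCCNNNGGC), itself rich in G and C, was less common, at 7.21 against 14.6%, or 10.1% of all tested peaks weighted to the same G and C classes, and the HNF4 motif (CAAAGTCCA) had 0 matches in the 666 peaks, against 1.00% of all tested peaks. None of the searched words contains another, and both strands were searched for each.

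The forkhead matches were spread over many genes. Of the 63 peaks by listed genes 12 held one, near the share of 20.4% among all 666 peaks. Among these 12 were peaks at Atp6ap1, Avpr1a, Dmrt2, Foxp1, Hepacam2, Hes1, Jag1, Slc4a9 and Tfcp2l1. The Tfcp2l1 downstream element printed above, 109 kb from the Tfcp2l1 start, held both a forkhead and a CP2 match. Of the 20 peaks with the largest difference, those by Bmp3, Gclc and Stap1 held a forkhead match, no larger a share than among all 666. The 136 peaks with the motif had 23.9, 24.7, 23.4, 29.8 and 22.5 CPM of open calls on average, and the 530 without it had 24.3, 24.2, 25.7, 29.6 and 23.2.

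**Figure D3:**
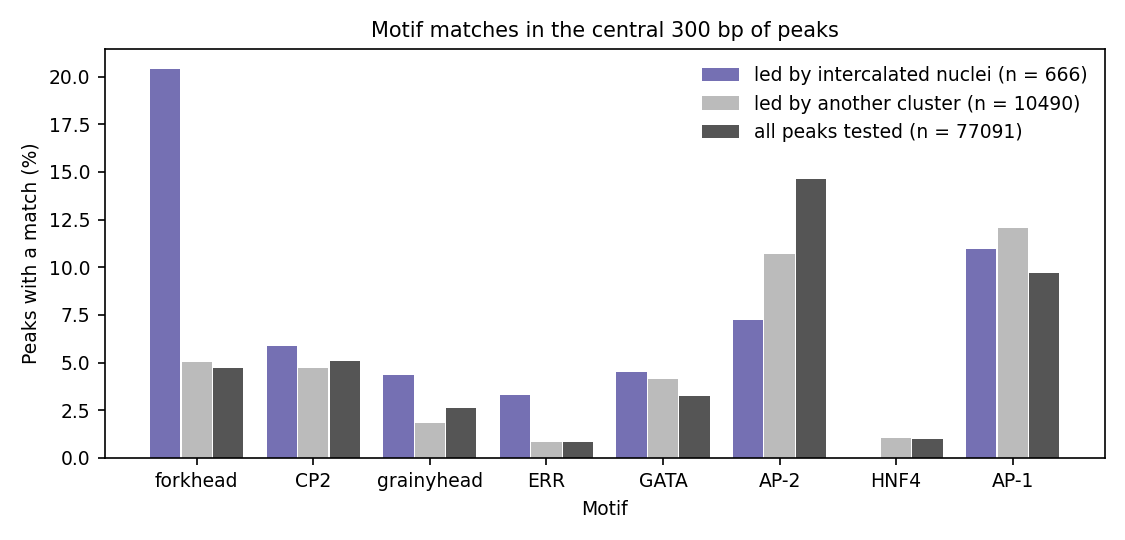
Percentage of peaks with at least 1 match to each of 8 motifs in their central 300 bp, for the 666 peaks ranked highest in intercalated nuclei, the 10490 ranked highest in another cluster and all 77091 tested peaks. Forkhead reaches 20.4% in the first set and 5.05 and 4.69% in the others.

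Whether loci of type A and type B cells were open in the same nuclei was examined over the 599 intercalated nuclei. A locus was open if any peak of its gene body or 2 kb upstream was. Odds ratios were combined over strata of sample and depth class (Mantel-Haenszel), since a deeply read nucleus has more of everything open, and their 95% intervals cover counting error only. The loci ranged from Aqp6, open in 15.4% of intercalated nuclei, to Slc4a9, open in 65.1%.

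Loci of the same type tended to be open together. All 15 pairs of type A loci had an odds ratio above 1, with a median of 1.81, and 10 intervals lay above 1. Of 10 pairs of type B loci 7 were above 1, with a median of 1.40 and 4 intervals above 1. The closest pair was Slc26a4 and Hmx2 at 6.17 (3.92 to 9.70), Hmx2 being open in 43.0% of nuclei with Slc26a4 open and in 11.1% of the rest. Insrr, which encodes an alkali-sensing receptor, and Hmx2 had 3.03 (1.94 to 4.76), and Slc4a1 and Dmrt2 had 2.87 (1.80 to 4.56).

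Loci of different types tended to be open apart. Of 30 pairs of a type A and a type B locus 25 had an odds ratio below 1, with a median of 0.687, and 15 intervals lay below 1 and 0 above. The lowest was Dmrt2 with Slc26a4, at 0.1996 (0.106 to 0.374), followed by Adgrf5 with Hmx2 at 0.208 (0.118 to 0.366). Slc4a1 and Slc26a4, which encode the exchangers that define the types, had 0.295 (0.176 to 0.495). Slc4a9 ran from 0.648 with Adgrf5 to 1.08 with Dmrt2, and was at 1.00 with Slc4a1 (0.635 to 1.58). Oxgr1 ran from 0.725 to 1.49 over the type A loci, and the intervals of all 6 pairs included 1.

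By sample, the mixed pairs lay lower in the 3 adult samples. Without the depth strata, the 30 mixed pairs had a median odds ratio of 1.21, 1.11, 0.742, 0.893 and 0.686 in the 5 samples, and 12, 13, 18, 15 and 24 of them were below 1. At P0 the nuclei were few and had more open peaks, and the difference between stages was not tested. With the sample alone as strata the median over all samples was 0.938, and the value depends on the adjustment for depth. Nuclei with a locus of both types open (Slc4a1, Aqp6 or Dmrt2 together with Slc26a4 or Hmx2) made up 15.0, 19.6, 5.32, 5.43 and 10.1% of intercalated nuclei and numbered 53 in all. At P0 these nuclei had a median of 11130 and 10590 open peaks, more than the intercalated median of their sample. No doublet removal is given in the sources used here and no doublet caller was run, and the part of doublets in these values was not tested.

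Of 33 pairs of Foxi1, Atp6v1g3 or Atp6v0d2, loci listed for all intercalated cells, with a type A or type B locus, 3 intervals lay above 1 and 0 below, with a median odds ratio of 1.15. Foxi1 had odds ratios of 0.757 with Slc26a4 and 0.832 with Slc4a1, and the intervals of both included 1. Atp6v1g3 gave 1.23 with Slc26a4 and 0.764 with Slc4a1, again with intervals that included 1, and 1.449 (1.02 to 2.05) with Oxgr1. Atp6v0d2 had 1.58 (1.08 to 2.33) with Slc26a4 and 1.91 (1.29 to 2.83) with Slc4a9, and 1.15 (0.756 to 1.74) with Slc4a1.

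**Figure D4:**
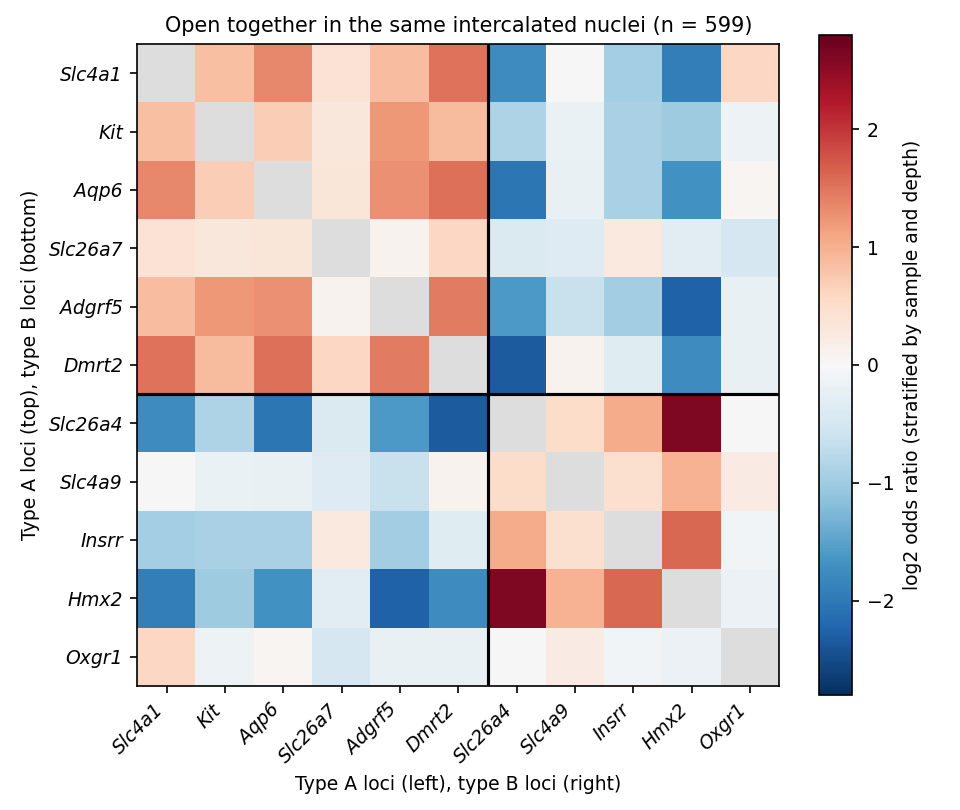
Odds ratio (log2 colour scale) of each pair of type A and type B loci being open in the same of 599 intercalated nuclei, stratified by sample and depth. Red (above 1) fills the type A block, Slc26a4 with Hmx2 is highest at an odds ratio of 6.17, and 25 of the 30 mixed pairs are blue (below 1).

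The chromatin of intercalated nuclei was next compared between P0 and adult samples, with edgeR and its quasi-likelihood test on the sums per sample. The tests rest on 40 and 56 nuclei at P0. Log2 changes are adult minus P0. In sums, fewer cells of a kind and less signal per cell cannot be told apart. Of 14852 peaks tested, 16 were higher in adult (0.108%, the share also for either direction) and 0 higher at P0 (0%), with 1570 at an unadjusted p under 0.05 in either direction. DESeq2 called 0 peaks in either direction, so the 16 were lost, with 696 at an unadjusted p under 0.05. Of the 666 peaks that marked intercalated nuclei, 499 were tested here and 0 were called, with a median change of -0.05. By gene activity, 55 of 12868 genes were higher in adult (0.427%) and 178 at P0 (1.38%), together 233 (1.81%). Counts of calls depended on single samples: without either P0 sample, which leaves 1, they were 0 and 2 peaks and 4 and 2 genes, and without P56 replicate 1, 462 peaks and 1313 genes. The balance of directions depended on them too, with 168 peaks higher in adult and 294 higher at P0 without P56 replicate 1. Each of the 20 genes named below with a stage change by size lost its call without either P0 sample.

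Of the 74 genes listed for intercalated cells, not all of which were tested, 1 was called, against 1.81% of all 12868 genes tested. A count of 1 cannot tell the listed genes from the rest. The called gene was Slc26a4, the type B marker, with 41.0, 32.4, 69.4, 74.9 and 92.0 CPM. All adult samples lay above both P0 samples, with a log2 change of 1.13 (adjusted p = 0.035, edgeR). Of all genes tested, 36.1% did not overlap between stages in either direction. The Slc26a4 call was lost without P0 replicate 1 (1.29), P0 replicate 2 (0.94), P21 (1.19, adjusted p = 0.066, edgeR) and P56 replicate 2 (0.99, adjusted p = 0.085, edgeR). DESeq2 gave a change of 1.09 with no adjusted p, and so no call. All 5 type B genes had positive changes with a median of 0.41, against 0.02 for all genes tested, of which 51.9% were positive, and the other 4 were not called. Of 6 type A genes 4 were positive with a median of 0.20, and 0 were called. The 5 proton-secreting V-ATPase isoforms had a median of 0.15 and 0 calls, and Foxi1 a change of 0.79 (adjusted p = 0.28).

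The gene with the largest rise in adult was Umod, which encodes uromodulin of the thick ascending limb. It had 3.41, 6.47, 41.7, 41.1 and 33.2 CPM in intercalated nuclei, with a log2 change of 2.76 ± 0.51 (SE, adjusted p = 0.010, edgeR). Its start (chr7:119479144-119479909) was open in 0, 1.79, 14.9, 12.2 and 15.4% of intercalated nuclei, with a log2 change of 4.10. Hnf4a, a regulator of the proximal tubule, had 17.1, 17.3, 69.4, 27.8 and 87.9 CPM with a change of 1.81. Both were low in the P0 samples, and stages that do not overlap were a condition for naming them.

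Most other markers of the proximal tubule also had positive changes, without being called. In intercalated nuclei the 5 proximal tubule markers summed to 174 and 175 CPM at P0 and to 254, 179 and 322 in adult, so that P56 replicate 1 lay near the P0 samples. Of the 5, 4 had a positive log2 change, with a median of 1.205, 1 was called (Hnf4a) and 0 were at 0 in all samples. The transporter genes Slc34a1 and Slc5a12 had log2 changes of 1.52 and 1.205, and the endocytic receptor genes Lrp2 and Cubn 0.25 and -0.47. The 2 loop of Henle markers summed to 23.9 and 21.6 at P0 and to 63.5, 48.4 and 58.9 in adult. Of these Umod was called, whereas the sodium cotransporter gene Slc12a1 had a change of 0.06. Principal nuclei had Umod at 4.11, 2.63, 12.9, 13.99 and 19.7 and Hnf4a at 19.8, 18.4, 82.8, 19.8 and 78.8 CPM in the same samples. The part of signal from other tubule cells in these changes was not tested.

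Other genes that rose in adult were Ces1d, a carboxylesterase (log2 2.50), Sult1d1, a sulfotransferase (2.23), Slc22a4, an organic cation and carnitine carrier (1.67), Pdilt (1.63), the histocompatibility gene H2-D1 (1.62), Gpx3, a secreted glutathione peroxidase (1.54), Sord, sorbitol dehydrogenase (1.30), and Osgin1 (1.25). Among peaks, an intron of Chdh, the gene of choline dehydrogenase, went from 0 and 0 at P0 to 25.8, 18.1 and 23.2 CPM. It was open in 7.10% of intercalated nuclei on average and 23.0% in PST, and principal nuclei had 17.2 and 17.6 CPM at P0. Further peaks that rose were in or by Fanca, Crispld2, Mkln1, Ppargc1b, Nfic, Ddo and Nr0b2. By mean share of nuclei open, only those by Fanca and Mkln1 were highest in intercalated nuclei. The part of signal from other cells in these changes was not tested.

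The largest fall was that of Fn1, which encodes fibronectin. It had 30.7 and 21.6 CPM at P0 and 1.98, 2.42 and 2.49 in adult, a log2 change of -3.37 ± 0.67 (SE, adjusted p = 0.016, edgeR). Hpse, the gene of heparanase, had 30.7 and 32.4 at P0 and 5.95, 4.84 and 6.63 in adult, a change of -2.43. Tpbg, the oncofetal antigen 5T4, had 34.1 and 21.6 at P0 and 3.97, 6.04 and 1.66 in adult, a change of -2.88. Stages that do not overlap were a condition for naming these genes. All 178 genes called higher at P0 met it, as did 36.1% of all genes tested, in either direction. The other 7 of the 10 with the largest fall were 4833427G06Rik (-3.12), Ccdc8 (-2.89), Lrrc4b (-2.69), the potassium channel gene Kcna5 (-2.51), Gadl1 (-2.46), Gpr158 (-2.35) and Ccdc60 (-2.25). In principal nuclei Fn1 also fell, from 28.4 and 23.3 at P0 to 5.52, 6.99 and 2.81 in adult.

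The change from P0 to adult was then compared between intercalated and principal nuclei of the same samples, as an interaction in edgeR with the sample as a block. Positive values mean a change that was more upward in intercalated nuclei. Of 31951 peaks, 98 had a positive (0.307%) and 44 a negative interaction (0.138%), and of the 661 tested peaks that marked intercalated nuclei 4 were positive. Of 15124 genes, 67 were positive (0.443%) and 18 negative (0.119%). Without P0 replicate 2, 11 peaks and 2 genes were called in all.

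Genes of intercalated subtypes were among the positive ones, 2 of 6 type A and 2 of 5 type B genes. Slc26a4 rose in intercalated nuclei as given above, whereas it fell in principal nuclei from 47.0 and 36.4 CPM at P0 to 12.9, 6.99 and 8.44 in adult. The interaction was 3.42 ± 0.34 (SE, adjusted p = 1.3e-06, edgeR) and stayed past the threshold without any 1 of the samples, at 3.21 to 3.67. After thinning each nucleus to 1000 open peaks it was 4.21 and not past the threshold. The other 19 of the 20 genes with the largest interactions each lost their call without P0 replicate 2. For Slc26a4 the values of the 2 cell types overlapped at P0, and in the adult samples every intercalated value was above every principal one.

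Kit, the gene of a receptor tyrosine kinase listed for type A cells, had 51.2, 84.2, 81.3, 101.5 and 79.6 in intercalated nuclei and 43.3, 49.1, 18.4, 8.16 and 9.85 in principal nuclei, an interaction of 2.40 (adjusted p = 0.00020, edgeR). Insrr had 85.3, 103.6, 148.8, 125.7 and 126.0 against 19.4, 24.8, 22.1, 8.16 and 5.63, an interaction of 1.70. Kit kept its call without any 1 of the samples (2.14 to 2.78), whereas Insrr lost it without P0 replicate 2 (1.68, adjusted p = 0.19) and without P56 replicate 2 (1.29, adjusted p = 0.15). After thinning neither was called, at 2.62 for Kit and 2.70 for Insrr. For Kit and Insrr the stage change within intercalated nuclei was not called, and the fall in principal nuclei was. Aqp6 had an interaction of 3.404 on low activity in principal nuclei (0 to 7.13), and lost its call without either P0 or either P56 sample. Edn3, the endothelin 3 gene, had 30.7, 34.5, 31.7, 66.5 and 43.9 in intercalated nuclei against 12.3, 12.8, 0, 2.33 and 4.22, an interaction of 2.697.

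Among the negative interactions the largest was that of Car15, a carbonic anhydrase anchored in the membrane. It had 34.1, 34.5, 31.7, 38.7 and 45.6 CPM in intercalated nuclei and rose in principal nuclei from 4.85 and 7.501 to 22.1, 30.3 and 38.7, an interaction of -2.07 (adjusted p = 0.016, edgeR). Fxyd2, the gamma subunit of the sodium pump, had 102.4, 99.3, 164.6, 136.6 and 167.5 in intercalated nuclei and 17.2, 13.5, 82.8, 43.1 and 71.1 in principal nuclei, an interaction of -1.41. Sgk1, the aldosterone-induced kinase, had 92.2, 142.4, 140.8, 105.2 and 116.1 against 79.2, 76.1, 218.9, 167.9 and 156.9, an interaction of -1.17, which was -0.72 without P0 replicate 2 (adjusted p = 0.66). In these 3 genes the rise in principal nuclei was called and the change in intercalated nuclei was not.

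**Figure D5:**
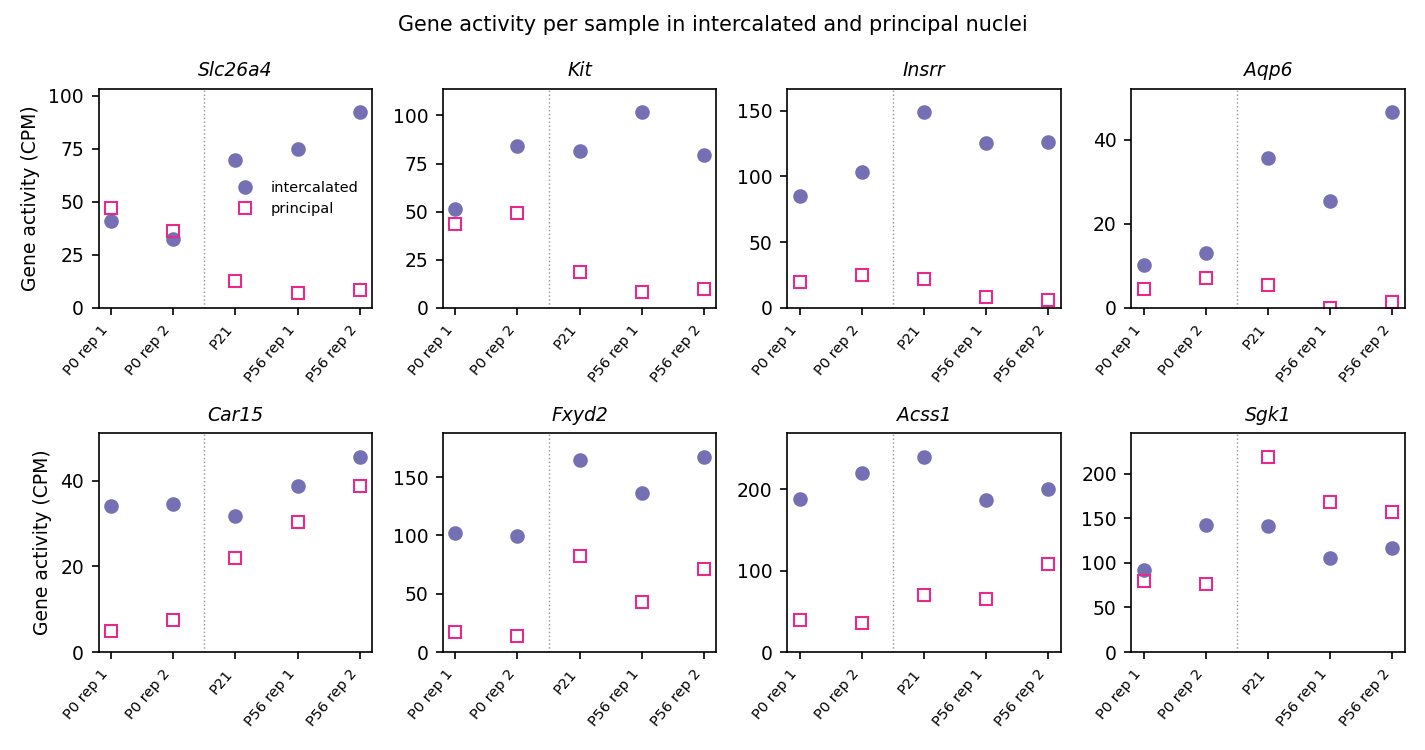
Gene activity in CPM (vertical axis, starting at 0) in intercalated (filled circles) and principal nuclei (open squares) of the 5 samples (horizontal axis, P0 left of the dotted line), for 4 genes with a positive and 4 with a negative interaction. Slc26a4 falls in principal nuclei from 47.0 and 36.4 at P0 to between 6.99 and 12.9 in adult while intercalated nuclei reach 69.4 to 92.0.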

How the data were processed

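Nuclei were called and aligned by the authors with Cell Ranger ATAC 1.1.0 (mm10), filtered by fragments, mitochondrial share and promoter ratio, and clustered with SnapATAC and Harmony. MACS2 peaks were called per cell type on pooled samples and merged. The deposited matrix is binarized, so its counts are open calls (0 or 1 per nucleus and peak), and the deposited cluster labels were used. Calls were summed per sample and cluster. Peaks were annotated with GENCODE M21, and sequences read from RefSeq GRCm38. edgeR 4.0.16 (quasi-likelihood, TMM, filterByExpr with a minimum count of 10, Benjamini-Hochberg threshold 0.05) was the test, with DESeq2 1.42.0 as an alternative. Tests were checked on simulated data. Members and gene lists were chosen with earlier results of these data known. Genes named were all listed genes with a peak, the 20 peaks and 20 genes with the largest difference among those ranked highest, and for stage and interaction the 10 largest past the threshold in each direction, with stages not overlapping for the former. Alternatives covered size factors, filters, blocks (replicate number added, sample removed), equal nuclei, thinning to 1000 open peaks, single stages and leaving out each replicate. A few items that these rules would name are not reported here. The authors' scRNA-seq labels served for cell shares alone.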

Additional observations from a re-analysis of the deposited data

Results flagged for a closer look

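In the following genes the change from P0 to adult differed between intercalated and principal nuclei by the interaction test of edgeR (adjusted p under 0.05), on the log2 scale and with positive values for a more upward change in intercalated nuclei. The positive ones were Scara3 (3.50), Slc26a4 (3.42), Aqp6 (3.40), Rd3 (2.96), Cldn9 (2.91), Luzp2 (2.87), Fam198a (2.81), Edn3 (2.70), Togaram2 (2.63), Erich5 (2.56), Kit (2.40) and Insrr (1.70). The negative ones were Car15 (-2.07), Muc20 (-1.76), Fxyd2 (-1.41), Otulinl (-1.35), Ptges (-1.35), Kcnj16 (-1.21), Acss1 (-1.19), Lipc (-1.17) and Sgk1 (-1.17).

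Slc26a4 changed in both cell types, as given above, and the genes that follow changed in principal nuclei. Acss1, an acetate-activating enzyme of mitochondria, had 187.7, 220.1, 240.0, 187.4 and 199.8 CPM in intercalated nuclei and rose in principal nuclei from 40.0 and 35.6 to 69.9, 65.3 and 108.4. Cldn9, a tight junction gene, fell in principal nuclei from 48.2 and 45.4 to 7.36, 5.83 and 4.93, and was too low in intercalated nuclei for a stage test.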

How the results depend on the processing

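The peaks ranked highest in intercalated nuclei numbered 666, 1593 without a filter, 8 after thinning, 152 with P0 samples alone, 1483 by Fisher's exact test over nuclei, and 392 to 693 leaving out 1 sample (392 without P0 replicate 2). The 59 genes became 20 without the sample as a block, 7 after thinning, 22 with P0 alone and 36 to 40 leaving out 1 sample. The 16 peaks that differed between stages became 0 with DESeq2, 201 without a filter and 87 with the replicate number as a block (68 higher in adult, 19 at P0). They became 2 with equal nuclei and 0 to 462 leaving out 1 adult sample. Thinning gave 2 peaks higher at P0 and 0 higher in adult, with 0 of the 16 among them. The 233 genes became 29 with DESeq2, 583 without a filter, 380 with the block, 2 after thinning and 64 to 1313 leaving out 1 adult sample. The 142 interaction peaks became 446 without a filter, 0 after thinning and 11 to 114 leaving out 1 sample, and the 85 genes 257, 1 and 2 to 149 (the lowest without P0 replicate 2, the 149 without P21). Same-numbered P0 and P56 samples deviated together with a correlation of 0.0638 over genes and 0.0440 over peaks. With 2 samples per stage, the crossed pairs give the same values with the opposite sign by construction. These values therefore cannot decide whether same-numbered samples were processed together, which was not tested.

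With sample alone as strata the median odds ratio was 0.938 for mixed pairs and 1.72 for type B pairs. Leaving out 1 sample gave 1.38 to 1.958 (A with A), 0.617 to 0.747 (A with B) and 1.19 to 1.56 (B with B), a share difference of 1.99 to 2.36 points and an open peak difference of -4076.5 to -2036.5. Over whole peaks the motif difference from all tested peaks, in points, was 20.7 for forkhead, -1.76 for CP2, -0.29 for GATA, -15.3 for AP-2, -1.66 for HNF4 and -2.97 for AP-1. The causes were not tested, beyond fewer samples or calls where these were left out. Of 90 named peaks and genes, 18 kept their call under every alternative run for them and 72 lost it under at least 1, among them all 20 stage genes, all 10 stage peaks and all 20 interaction genes. Over the 856 values this gave, 0 reversed.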

Other observations

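Intercalated nuclei with a type A locus open (Slc4a1, Aqp6 or Dmrt2) and neither Slc26a4 nor Hmx2 numbered 184, and those with the reverse 154. Their gene activity was compared as a description, without the 5 genes that chose them or genes within 1 Mb. Of the 6 genes listed for either type and left out of the choice, 4 lay on their own side in at least 4 of 5 samples. The nuclei and loci are those of the odds ratios above, so this count restates them in part. Of all 12019 genes compared, 18.7% were higher in the type A nuclei and 22.7% in the type B nuclei in at least 4 of 5. Adgrf5 had 165 CPM in the former and 42.3 in the latter nuclei and Kit 106.0 and 43.4, each higher in the type A nuclei in 4 of 5 samples. Insrr had 85.9 and 180.4 and was higher in the type B nuclei in 4 of 5 samples, and Slc4a9 had 176.0 and 276, in 5 of 5. Oxgr1, a type B gene, lay on the other side with 87.6 and 72.4, higher in the type A nuclei in 5 of 5. The type A gene Slc26a7 had 49.2 and 33.4 over all samples but was higher in the type B nuclei in 3 of 5. Atp6v1g3 was level at 85.9 and 85.7, as was Foxi1 at 47.6 and 45.7.

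Of 12019 genes, 547 were higher in type B and 459 in type A nuclei in all 5 samples. These counts carry no test, and no other division of the nuclei was counted. The genes outside the lists that follow were chosen from these counts for the size of their difference, after their values were seen. On the type B side Cpeb1, an RNA-binding protein gene, had 29.2 and 95.8, the potassium channel gene Kcnq3 10.8 and 44.5, and Igfbp5, an insulin-like growth factor binding protein gene, 39.2 and 96.9 CPM in type A and type B nuclei. On the type A side Timp2, a metalloproteinase inhibitor gene, had 57.6 and 15.6 and Defb1, a defensin gene, 55.9 and 18.9. Of the acid-base list, Rhbg, an ammonia transporter gene, had 168.5 and 99.1 and was higher in type A nuclei in 5 of 5.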
